A study of Homo sapiens with 4 samples.

Results

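The Toll-like receptors are the 10 human genes TLR1 to TLR10, whose messenger RNA was measured here in HEK293, a line derived from human embryonic kidney cells and widely used to express introduced receptors. The members were found by name: every array probe whose RefSeq accession belongs to 1 of the 10 genes was taken, which gave 39 probes in 13 targets, and all 10 genes had a value among the 17214 genes that could be named. TLR4 had 3 targets and TLR8 had 2, and each of the other 8 genes had 1 target of 3 probes. The study asked which G protein-coupled receptors and signaling genes this line transcribes, and it hybridized total RNA from 4 HEK293 cultures to NimbleGen single-color arrays. All 4 samples belonged to 1 group of untreated cells grown under basal conditions in DMEM with fetal serum, each from its own plate and its own extraction, so the design holds no comparison of conditions and the replicates show the spread between plates of 1 line.

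Toll-like receptors recognize conserved microbial molecules. TLR1, TLR2, TLR4, TLR5, TLR6 and TLR10 act mainly at the cell surface, whereas TLR3, TLR7, TLR8 and TLR9 sense nucleic acids in endosomes. Ligand binding brings adaptor proteins such as MYD88 or TICAM1 to the receptor's intracellular TIR domain, and kinases and ubiquitin ligases then lead to NF-kB and interferon regulatory factors. HEK293 cells are commonly given single TLR genes from plasmids to study each receptor on its own, so the endogenous level of each receptor in untransfected cells is the quantity described here.

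Values are log2 array units, and a gene's level is the log2 of the mean of its probes. Following the study's rule, each array had a baseline of the mean plus 2 SD of 10 genes of seminal proteins, and a gene counted as above the baseline if its distance (level minus baseline) averaged more than 0 over the 4 arrays. The baseline was 9.47, 9.94, 10.69 and 10.32 log2 units on replicates 1 to 4, and 52.7% of all named genes were above it. A level below this baseline is not absence, and because probes differ in how strongly they bind, levels of different genes are not amounts of transcript that can be set against each other. The arrays correlated with each other at r from 0.949 to 0.977 over the levels of all named genes.

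None of the 10 TLR genes was above the baseline. All 10 lay below it on each of the 4 arrays, as did 39.8% of all named genes. In limma fits of the distances over all genes, with Benjamini-Hochberg adjustment, 10 of 10 were called below the baseline, against 41.0% of all genes, and the largest adjusted p among the 10 was 5.9e-09. The limma spread was common to all genes, with a standard error of 0.35 for every distance. The fits took each array's baseline as given. Their p values therefore leave out the uncertainty of a baseline set by 10 control genes. With only 4 arrays, the smallest p that an exact one-sided sign-flip test of 1 gene allows is 0.0625. The median distance of the 10 genes was -3.26 log2 units, beside 0.26 over all named genes and -3.42 over 364 olfactory receptor genes, a family used mainly in the nose.

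**Figure D1:**
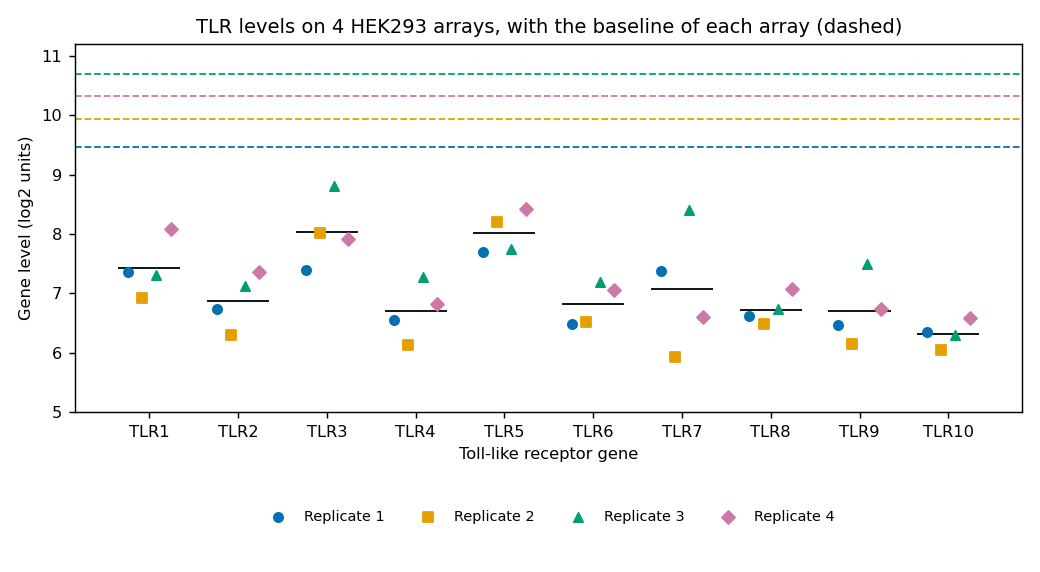
Level of each TLR gene in log2 units on each of the 4 HEK293 arrays (points, 1 symbol per replicate), with the baseline of each array. Every point lies under the baseline of its own array, TLR3 and TLR5 have the highest means at 8.03 and 8.02, and TLR10 has the lowest at 6.32.

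Among the cell-surface receptors, TLR5, which binds bacterial flagellin, had the highest mean. Its level was 7.70, 8.20, 7.74 and 8.43 on replicates 1 to 4, with a mean distance of -2.09 ± 0.58 (SD, n = 4). The level on replicate 3 was close to that on replicate 1, but the baseline of replicate 3 was the highest of the 4, so the distance there was -2.95 while the others ran from -1.90 to -1.73. TLR1, which pairs with TLR2 to bind triacylated lipopeptides, gave levels of 7.36, 6.93, 7.30 and 8.08, and its mean distance was -2.69 ± 0.61 (SD, n = 4). Replicate 4 was the high array for TLR1, and replicate 2 the low one.

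TLR2, the shared partner of TLR1 and TLR6, gave levels of 6.74, 6.30, 7.11 and 7.35 and a mean distance of -3.23 ± 0.45 (SD, n = 4). TLR6, which pairs with TLR2 to bind diacylated lipopeptides, gave levels of 6.48, 6.52, 7.18 and 7.06 and a mean distance of -3.29 ± 0.23 (SD, n = 4). Both members of each TLR2 heterodimer were thus more than 2 log2 units under the baseline on every array. TLR4, the receptor for lipopolysaccharide, gave levels of 6.55, 6.13, 7.28 and 6.81, with a mean distance of -3.41 ± 0.37 (SD, n = 4) over its 3 targets. TLR10, whose ligand is less well defined, gave levels of 6.34, 6.04, 6.30 and 6.59 and had the lowest mean distance of the family, -3.79 ± 0.52 (SD, n = 4).

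Among the endosomal receptors, TLR3, which senses double-stranded RNA, gave levels of 7.39, 8.01, 8.80 and 7.91. Its mean distance was -2.08 ± 0.24 (SD, n = 4), and its distance varied less between arrays than its level, whose SD was 0.58. TLR7, a receptor for single-stranded RNA, varied most of the 10, with levels of 7.37, 5.92, 8.41 and 6.60 and a mean distance of -3.03 ± 0.98 (SD, n = 4). Replicates 1 and 3 were higher than replicates 2 and 4 for TLR7. TLR8, which also senses single-stranded RNA, gave 6.61, 6.48, 6.73 and 7.07 over 2 targets, at a mean distance of -3.38 ± 0.46 (SD, n = 4). TLR9, the receptor for unmethylated CpG DNA, gave 6.47, 6.14, 7.49 and 6.73, at a mean distance of -3.40 ± 0.36 (SD, n = 4), and both TLR8 and TLR9 were under the baseline by more than 2 log2 units on every array.

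In order of mean level the genes ran TLR3, TLR5, TLR1, TLR7, TLR2, TLR6, TLR8, TLR9, TLR4 and TLR10. Only the step from TLR5 to TLR1, of 0.60 log2 units, was larger than the SD of that difference over the 4 arrays, 0.45. The other 8 neighboring pairs in the order did not differ beyond their spread, and the step from TLR4 to TLR10 was 0.37 with an SD of 0.41. The order describes probe signals and was not tested, since the SD over arrays does not cover differences in probe binding.

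Single probes gave the same picture. Of the 156 TLR probe values, 0 were above the baseline of their array, beside 19 of 4368 olfactory receptor probe values (0.435%) and 47.9% of the values of all named genes. The highest TLR probe on each array read 8.31, 9.05, 9.63 and 9.09 on replicates 1 to 4. The closest approach to a baseline was by a TLR5 probe on replicate 2, which stayed 0.89 log2 units under it. Probes of 1 gene differed: the 3 TLR5 probes had means of 8.39, 7.06 and 8.13, and the 3 TLR3 probes 8.25, 8.25 and 7.04. The high level of TLR7 on replicate 3 came with a reading of 9.42 from 1 probe, whereas the other 2 read 7.43 and 7.34 there.

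The TLR levels were also set beside genes of other tissues. Of the 10 seminal genes, 8 had levels between 6.05 and 7.72 over the 4 arrays, and the remaining 2, SPATA5 and SPATA13, averaged 9.97 and 9.72 and so raised the baseline. The median TLR level exceeded the median olfactory receptor level by 0.24, 0.13, 0.16 and 0.11 log2 units on replicates 1 to 4. On the mean of the 4 arrays, TLR3 was higher than 354 of the 364 olfactory receptor genes, TLR5 than 353, TLR1 than 333 and TLR7 than 304. At the other end TLR10 was higher than 10 of them, and TLR4, TLR9 and TLR8 than 188, 192 and 204. TLR7 changed place with the array, above 332, 54, 356 and 56 olfactory genes on replicates 1 to 4.

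The position of TLR3 and TLR5 depended on those 2 seminal genes. With SPATA5 and SPATA13 left out, the baseline averaged 7.78, and TLR3 and TLR5 were above it by 0.25 and 0.24, beside 74.0% of all named genes. Limma called 6 of the 10 TLR genes below that baseline. TLR1, at -0.36 (adjusted p = 0.46), and TLR7, at -0.70 (adjusted p = 0.069), were under it but not called by limma. With olfactory receptor genes as controls the baseline averaged 8.02. Of the 10, 1 gene, TLR3, was above it, by 0.0065, beside 71.4% of all named genes. Limma called 7 of the 10 below that baseline, and TLR1, at -0.60, was not among them (adjusted p = 0.072).

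The chromosomal neighbors of the TLR genes lay on both sides of the baseline. The nearest protein-coding genes with a target, 1 on each side, gave 14 distinct genes that are not TLRs, of which 11 were above the baseline, beside 52.7% of all named genes, and 7 were above it on all 4 arrays, a share near the 45.0% of all named genes. The 3 below were RNF175 beside TLR2, at -1.61 ± 0.43, SORBS2 beside TLR3, at -1.58 ± 1.45, and BRINP1 beside TLR4, at -2.83 ± 0.44 (SD, n = 4). TLR7 and TLR8 lie next to each other on the X chromosome, between PRPS2, a nucleotide synthesis enzyme at a distance of 3.79 ± 0.74 (SD, n = 4), and TMSB4X, an actin-binding peptide at 5.57 ± 0.62 (SD, n = 4). TLR9 on chromosome 3 lies between ALAS1, the first enzyme of heme synthesis, at 4.64 ± 0.47 (SD, n = 4), and TWF2, an actin-binding protein, at 1.64 ± 0.35 (SD, n = 4). TLR10, TLR1 and TLR6 are adjacent on chromosome 4, between KLF3, a transcription factor at 2.11 ± 0.27 (SD, n = 4), and FAM114A1 at 0.24 ± 0.55 (SD, n = 4). FAM114A1 was over the baseline on 2 of 4 arrays.

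Most markers known for this line were above the baseline on every array. Of 7 such markers, 7 were above it on the mean, beside 52.7% of all named genes. On all 4 arrays 6 were above it, beside 45.0%, among them the neurofilament gene NEFL at 4.01 ± 0.56 and the vimentin gene VIM at 5.26 ± 0.64 (SD, n = 4). The exception, NEFM, was at 0.66 ± 3.08 (SD, n = 4), with -1.62 and -2.24 on replicates 2 and 4. Limma did not call NEFM above (adjusted p = 0.064). Of 12 leukocyte markers, which mark the cells that carry most TLRs in the body, 11 were called below the baseline by limma, against 41.0% of all named genes, and 1 was above it. That gene, CD68, a lysosomal protein of macrophages that other cells also make, was at 1.67 ± 0.71 (SD, n = 4). PTPRC, which encodes the pan-leukocyte antigen CD45, was at -3.50 ± 0.50 (SD, n = 4). CSF1R, also among those called below, was nearer to the baseline, at -0.79 ± 0.58 (SD, n = 4), and above it on replicate 1, by 0.07. Its mean level of 9.31 exceeded the average baselines of 8.79 at 1 SD and of 7.78 without SPATA5 and SPATA13 as controls.

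Proteins that present ligand to the receptors or sit beside them at the surface were below the baseline as well. Of 7 accessory genes, 0 were above it, beside 52.7% of all named genes, and limma called 7 of 7 below it, against 41.0%. Without SPATA5 and SPATA13 as controls, limma no longer called CD180 (-0.55, adjusted p = 0.14), LY86 (-0.58, adjusted p = 0.12) or TRIL (-0.38, adjusted p = 0.43) below. With olfactory receptor genes as controls, it no longer called CD14 (-0.14) or TRIL (-0.62) below. CD14, which hands lipopolysaccharide to TLR4, gave levels of 8.25, 6.76, 8.98 and 7.54 and a mean distance of -2.22 ± 0.91 (SD, n = 4), which became 0.10 without SPATA5 and SPATA13 as controls. LY96, which encodes MD-2, the lipopolysaccharide-binding partner of TLR4, gave 5.97, 6.26, 7.16 and 6.64 and a mean distance of -3.60 ± 0.10 (SD, n = 4). TLR4 and both of these partners were thus under the baseline on every array.

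Genes that fold, move and cut the receptors were mostly above the baseline. Of 12, 11 were above it, beside 52.7% of all named genes, 8 were above it on all 4 arrays, as were 45.0% of all named genes, and limma called 9 above, against 45.9% of all named genes. The TLR chaperone HSP90B1 was at 5.36 ± 0.79, its co-chaperone CNPY3 at 3.02 ± 0.69, and the asparagine endopeptidase LGMN at 4.96 ± 0.46 (SD, n = 4). LRRC59, AP3B1, CTSL, SLC15A4 and CTSK were also above on all 4 arrays. UNC93B1, which carries the endosomal TLRs out of the endoplasmic reticulum, lay at the baseline, with levels of 10.09, 8.85, 10.59 and 10.91 and a mean distance of 0.005 ± 0.80 (SD, n = 4). It was above the baseline on replicates 1 and 4 and below it on replicates 2 and 3. Its place moved with the baseline, to 2.33 without SPATA5 and SPATA13 as controls and to -1.31 with 3 SD in place of 2. CTSB was likewise at the baseline, at 0.04 ± 0.69 (SD, n = 4), and moved to 2.37 and -1.28 under the same changes. Without replicate 1, UNC93B1 was at -0.20 and CTSB at -0.30. The protease CTSS was the gene of the 12 that limma called below it, at -3.62 ± 0.63 (SD, n = 4).

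**Figure D2:**
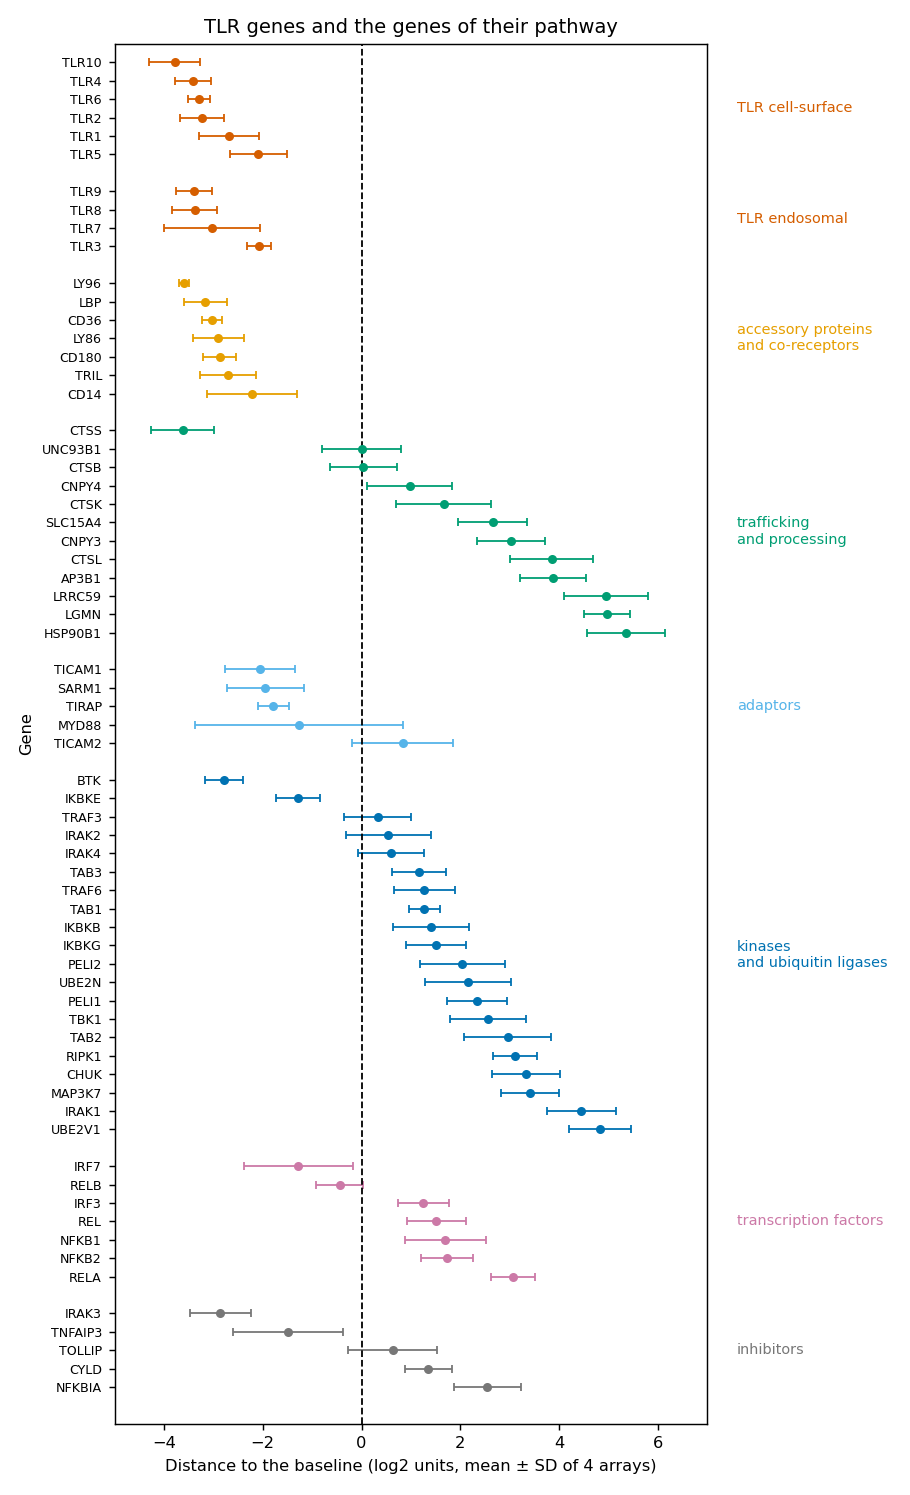
Distance from the baseline in log2 units (mean and SD over 4 arrays) for the TLR genes and the measured genes of their pathway, grouped by role. The 10 receptors and 7 accessory genes all lie left of 0, and most genes of trafficking (11 of 12) and of the kinases and ubiquitin ligases (18 of 20) lie right of it.

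Of the 5 adaptor genes that carry a TIR domain, 1 was above the baseline, beside 52.7% of all named genes, and limma called the other 4 below it, against 41.0%. The gene above was TICAM2, which bridges TLR4 to TICAM1, with levels of 11.82, 10.52, 10.91 and 10.49 and a mean distance of 0.83 ± 1.03 (SD, n = 4). Each array had it over its baseline, replicate 1 by 2.35 and the others by at most 0.58, and without replicate 1 the distance was 0.32 and the limma call was lost (adjusted p = 0.35). On all 4 arrays, the limma call was also lost with replicates 1 and 2 and replicates 3 and 4 as blocks (adjusted p = 0.061). Of the 3 TICAM2 probes, 1 was above the baseline on all 4 arrays, reading 13.03, 11.84, 11.66 and 11.76. The others were above it on 2 arrays and on 1 array. With the mean of log2 probe values the distance was 0.47 and limma did not call it (adjusted p = 0.21). The median of probe values gave -0.093. The reference table also lists a read-through transcript, TMED7-TICAM2, so the probes of TICAM2 may read 2 genes. TIRAP, which links MYD88 to TLR2 and TLR4, was at -1.78 ± 0.31, TICAM1, the adaptor of TLR3, at -2.05 ± 0.71, and SARM1 at -1.95 ± 0.78 (SD, n = 4). These places turned with the control genes: without SPATA5 and SPATA13, TIRAP was 0.54, TICAM1 0.28 and SARM1 0.38 above the baseline, and MYD88 was 1.07 above it.

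MYD88, the adaptor of most TLRs other than TLR3, gave levels of 10.48, 7.09, 10.73 and 7.08. It was above the baseline on replicates 1 and 3, by 1.01 and 0.04, and below it on replicates 2 and 4, by distances of -2.84 and -3.24. The mean distance was -1.26 ± 2.10 (SD, n = 4), a value that none of the 4 arrays was near. Limma, with the common spread, called it below the baseline, but its own SD over the arrays exceeded its distance. The call was lost without replicate 2, at -0.73, and without replicate 4, at -0.60. A single probe carried most of this difference, with readings of 11.80, 8.11, 12.18 and 7.03. Another MYD88 probe read 9.06, 5.66, 8.25 and 5.99, and the remaining one read 7.50, 6.36, 7.24 and 7.72.

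A gene with a level on both of replicates 1 and 3 above both of replicates 2 and 4 was not rare: 22.2% of all named genes had that order. It was seen in 1 of the 10 TLR genes, TLR7, and in 20 of the 56 measured pathway genes, including CD14, MYD88, IRF7 and TNFAIP3. These 4 arrays carry the same labels apart from the replicate number. NEFM, a marker of the line, had the same order, with levels of 13.57, 8.32, 13.09 and 8.08. The order of the arrays was known from earlier results of these data, its cause was not tested, and no test was run on it.

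**Figure D3:**
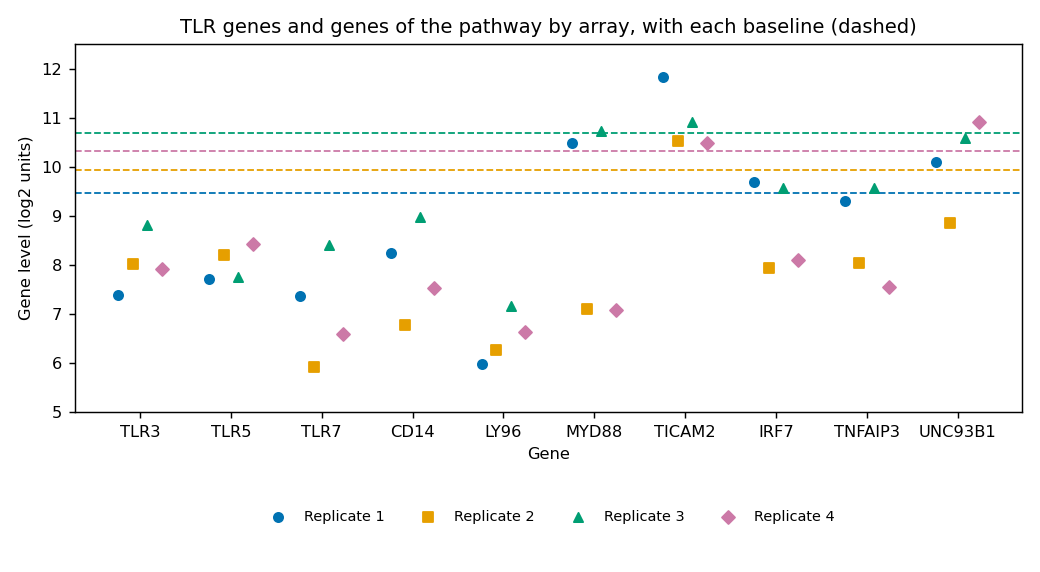
Level in log2 units of TLR3, TLR5, TLR7 and 7 genes of the pathway on each of the 4 arrays (1 symbol per replicate), with the baseline of each array as a dashed line. MYD88 is near 10.5 on replicates 1 and 3 and near 7.1 on replicates 2 and 4, TLR7 follows the same order under every baseline, and TICAM2 lies above the baseline of its array each time.

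The promoters of TLR3 and MYD88 are shown because each holds a match to GAAANNGAAA, the core of the interferon-stimulated response element, on either strand, and because TLR3 had the highest mean of the family and MYD88 the largest SD between arrays among the 56 measured pathway genes. Each sequence runs 5′ to 3′ on the plus strand of GRCh38.p14, from RefSeq, over 130 bases before the gene's start and 20 from it. Capitals mark the match, which in TLR3 reads as TTTCNNTTTC, the same element on the other strand.
TLR3 promoter, chr4:186069026-186069175: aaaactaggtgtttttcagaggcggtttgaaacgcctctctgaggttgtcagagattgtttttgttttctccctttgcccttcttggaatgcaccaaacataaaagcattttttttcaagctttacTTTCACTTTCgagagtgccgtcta
MYD88 promoter, chr3:38138531-38138680: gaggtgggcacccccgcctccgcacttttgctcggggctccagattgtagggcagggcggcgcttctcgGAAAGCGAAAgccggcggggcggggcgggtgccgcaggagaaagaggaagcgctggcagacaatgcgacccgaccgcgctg
Of 35116 promoter records of 300 bases, 3.57% held such a match. Of the TLR genes 7 had a record, and TLR3 was the 1 of the 7 with a match, so a match is a description of these letters and not a site. The number of CpG pairs in the 300 bases was 5 for TLR3, 27 for TLR5, 33 for TLR2, 8 for TLR4, 6 for TLR8, 5 for TLR6 and 2 for TLR9, and 25 for MYD88. As only 70.0% of the family had a record, no statement on the family's promoters was drawn from these counts.

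The kinases and ubiquitin ligases downstream of the adaptors were mostly above the baseline. Of 20, 18 were above it, beside 52.7% of all named genes, and 15 were above it on all 4 arrays, beside 45.0%. Limma called 15 above and 2 below, against 45.9% and 41.0% of all named genes. IRAK1, the kinase recruited through MYD88, was at 4.45 ± 0.69, with levels from 14.32 to 14.72, and UBE2V1, part of the ubiquitin-conjugating complex used by TRAF6, was at 4.83 ± 0.63 (SD, n = 4). TRAF6, the ubiquitin ligase of the pathway, was at 1.27 ± 0.62, and MAP3K7, the kinase TAK1, at 3.41 ± 0.59 (SD, n = 4). The limma call of TRAF6 was lost with the mean of log2 probe values, at 0.65 (adjusted p = 0.079). It was also lost with the median of probe values, at 0.50 (adjusted p = 0.16). IRAK4, IRAK2 and TRAF3 were within 1 SD of the baseline, at 0.60 ± 0.66, 0.54 ± 0.86 and 0.33 ± 0.68 (SD, n = 4), and passed no limma threshold. Without replicate 3, limma called IRAK4 (0.77) and IRAK2 (0.94) above. Without SPATA5 and SPATA13 as controls it called IRAK4, IRAK2 and TRAF3 above, at 2.92, 2.87 and 2.66, and with 3 SD they lay at -0.72, -0.77 and -0.99. The 2 genes below were BTK, a kinase of B cells and myeloid cells, at -2.78 ± 0.39, and IKBKE, an inducible kinase related to TBK1, at -1.29 ± 0.44 (SD, n = 4), which became 1.04 without SPATA5 and SPATA13 as controls. In that setting BTK was at -0.46, and limma no longer called it below (adjusted p = 0.25). TBK1 itself was at 2.56 ± 0.77 (SD, n = 4).

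Of 7 transcription factors, 5 were above the baseline on all 4 arrays, beside 45.0% of all named genes, and limma called 5 above, against 45.9%. They were the NF-kB subunits RELA at 3.06 ± 0.45, NFKB2 at 1.74 ± 0.53, NFKB1 at 1.70 ± 0.82 and REL at 1.52 ± 0.60, and IRF3, which induces interferon genes, at 1.25 ± 0.51 (SD, n = 4). RELB was within 1 SD of the baseline, at -0.45 ± 0.48 (SD, n = 4), and was called on neither side. It moved to 1.88 without SPATA5 and SPATA13 as controls and to -1.76 with 3 SD. IRF7, an interferon-inducible partner of IRF3, gave levels of 9.69, 7.94, 9.57 and 8.10 and was called below at -1.28 ± 1.10 (SD, n = 4). It was above the baseline on replicate 1, by 0.22, and its mean distance became 1.05 without SPATA5 and SPATA13 as controls.

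Of 5 inhibitors of the pathway, 3 were above the baseline, beside 52.7% of all named genes. NFKBIA, which holds NF-kB in the cytoplasm, was at 2.55 ± 0.67 and the deubiquitinase CYLD at 1.35 ± 0.47 (SD, n = 4), both above on all 4 arrays. TOLLIP was within 1 SD of the baseline, at 0.63 ± 0.90 (SD, n = 4), and moved to 2.96 without SPATA5 and SPATA13 as controls and to -0.68 with 3 SD. IRAK3, a kinase-like inhibitor of myeloid cells, was at -2.86 ± 0.62, and TNFAIP3, the deubiquitinase A20, at -1.49 ± 1.11 (SD, n = 4), and limma called both below. TNFAIP3 was at 0.83 without SPATA5 and SPATA13. In that setting IRAK3 was at -0.53, and limma no longer called it below (adjusted p = 0.16). Over all the roles together, 38 of 56 measured pathway genes were above the baseline (67.9%, beside 52.7% of all named genes), with a median distance of 1.26. Limma called 32 above and 17 below, against 45.9% and 41.0% of all named genes. Another 2 listed pathway genes were not analysed here.

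The other receptors with a TIR domain, the interleukin-1 receptor family, were also mostly below the baseline. Of 10, limma called 9 below the baseline and 1 above it, against 41.0% and 45.9% of all named genes. Of the 9, IL1RAP and IL18R1 had mean levels of 8.74 and 8.27. Both exceeded the average baseline of 7.78 without SPATA5 and SPATA13 as controls, and the rest of the 9 did not. The gene called above was SIGIRR, which dampens interleukin-1 and TLR signals. It had levels of 12.02, 12.03, 12.35 and 12.27 and a mean distance of 2.06 ± 0.37 (SD, n = 4). Its 3 probes differed, and 1 of them stayed under the baseline on every array. The limma call of SIGIRR was lost with the mean of log2 probe values, at 0.59 (adjusted p = 0.11). It was also lost with 3 SD in place of 2, at 0.74 (adjusted p = 0.087). Of 9 genes that TLR signaling induces, among them TNF, IL6, CXCL8 and IFNB1, 0 were above the baseline and limma called 8 below it, against 52.7% and 41.0% of all named genes. The remaining one, the adhesion molecule ICAM1, was at -0.65 ± 0.63 (SD, n = 4) and was called on neither side. Limma called it below without replicate 1, at -0.81, whereas it lay above the baseline without SPATA5 and SPATA13 as controls, at 1.68. CCL2, CCL5 and CXCL8, with mean levels of 8.95, 8.39 and 8.13, also exceeded the average baseline of 7.78 in that setting. TNF, IL6, IL1B, CXCL10 and IFNB1 stayed under it. CCL2 was above the baseline as used on replicate 1, by 0.34.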

How the data were processed

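Four-plex NimbleGen HG18 expression arrays with 60-base probes, 3 per target, were hybridized with Cy3-labeled cDNA made from total RNA with an oligo(dT) primer. The authors scanned the arrays, extracted signals with NimbleScan and deposited 1 log2 value per probe and array. The submitters' processing notes name RMA with no stated role. The deposited log2 values have near-identical distributions within replicates 1 and 2 and within 3 and 4, the form that quantile normalization in pairs gives. No read depth applies, and the 4 arrays limit the precision.

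From these values, probes were averaged on the linear scale per target, and targets per gene on the log2 scale. Genes were named by RefSeq accession from a GRCh38.p14 table, which named 19122 of 24000 targets. The baseline used 10 of the 11 seminal control genes, since 1 had no match, and SPATA5 is listed there as AFG2A. limma 3.58.1 in R 4.3.3 fitted 1 group over 17214 genes, one-sided on each side, with Benjamini-Hochberg adjustment at 0.05. The step was run on simulated data of independent genes with a common SD. That simulation does not cover genes of unequal spread or the uncertainty of the baseline. All 10 TLR genes were reported. Within lists, genes above the baseline on all 4 arrays or within 1 SD of it could be named, and other named genes were chosen after their values were seen. The members and lists were chosen with earlier results of these data known. Alternatives covered the baseline, its controls, probe and target summaries, normalization and the arrays used.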

Additional observations from a re-analysis of the deposited data

Results flagged for a closer look

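Single arrays stood apart from the other 3 in 8 of 146 measures, the level and the distance of 73 genes, where chance marks about 1 in 20 groups. For TLR5 the distance on replicate 3 was -2.95, while the other arrays ran from -1.90 to -1.73, and its level was not marked. Among the pathway genes, the level of LRRC59 was 14.5 on replicate 3 (others 15.17 to 15.29), that of CTSL was 14.5 on replicate 1 (13.74 to 13.79), that of PELI1 was 12.1 on replicate 4 (12.54 to 12.60) and that of IRF3 was 11.3 on replicate 2 (11.38 to 11.40). The distance of TAB1 was 0.80 on replicate 2 (1.38 to 1.47) and that of IKBKG was 2.41 on replicate 1 (1.13 to 1.28). The leukocyte marker PTPRC had a level of 7.73 on replicate 3, beside 6.22 to 6.24 on the other arrays, all under the baseline.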

How the results depend on the processing

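The height of the baseline, set by its control genes and its SD multiple, moved the results most. It averaged 10.10 log2 units as used, 8.79 at 1 SD, 11.42 at 3 SD, 7.78 without SPATA5 and SPATA13, 8.02 with olfactory receptor controls and 8.40 from the median and scaled MAD. The share of all named genes above the baseline was 52.7% as used, 64.3% at 1 SD and 39.1% at 3 SD. That share was 74.0% without SPATA5 and SPATA13, 71.4% with olfactory controls and 67.7% with the MAD. The number of TLR genes above the baseline was 0 as used, 2 without SPATA5 and SPATA13 and 1 with olfactory controls. Limma called 6 below without SPATA5 and SPATA13. Leukocyte markers above numbered 2 at 1 SD, without SPATA5 and SPATA13, with olfactory controls and with the MAD. The other 85 counts stayed within 1.5 times, with pathway genes above from 26 (3 SD, beside 39.1% of all named genes) to 47 (without SPATA5 and SPATA13, beside 74.0%). Among those counts, limma called 7 TLR genes below with olfactory controls and 8 with the MAD. The distances below were compared between settings for the TLR genes and only part of the other listed genes. Without SPATA5 and SPATA13 the sign turned for TLR3 (0.25), TLR5 (0.24), CD14 (0.10), MYD88 (1.07), TIRAP (0.54), TICAM1 (0.28), SARM1 (0.38), IKBKE (1.04), RELB (1.88), IRF7 (1.05), TNFAIP3 (0.83) and ICAM1 (1.68). With olfactory controls it turned for TLR3 (0.0065), MYD88 (0.83), TIRAP (0.30), TICAM1 (0.033), SARM1 (0.14), IKBKE (0.80), RELB (1.64), IRF7 (0.81), TNFAIP3 (0.59) and ICAM1 (1.43). With the MAD it turned for MYD88 (0.45), IKBKE (0.42), RELB (1.26), IRF7 (0.43), TNFAIP3 (0.21) and ICAM1 (1.05), and at 1 SD for MYD88 (0.059), IKBKE (0.030), RELB (0.87), IRF7 (0.040) and ICAM1 (0.67). At 3 SD it turned for UNC93B1 (-1.31), CNPY4 (-0.34), CTSB (-1.28), TICAM2 (-0.49), IRAK2 (-0.77), IRAK4 (-0.72), TRAF6 (-0.044), TRAF3 (-0.99), TAB1 (-0.043), TAB3 (-0.15), IRF3 (-0.067), TOLLIP (-0.68) and NEFM (-0.66). Those turns follow from the height of the baseline. The cause of the following turns was not tested. The mean of log2 probe values turned UNC93B1 (-0.25) and IRAK2 (-0.012), the highest target UNC93B1 (-0.030), and the median of probes CTSB (-0.0016) and TICAM2 (-0.093). Replicates 1 and 2 alone turned UNC93B1 (-0.23), replicates 3 and 4 alone CTSB (-0.22), IRAK2 (-0.049) and TRAF3 (-0.086), replicates 1 and 3 alone MYD88 (0.53), and replicates 2 and 4 alone UNC93B1 (-0.25), CTSB (-0.30) and NEFM (-1.93). Leaving out each array in turn, UNC93B1 ran from -0.20 to 0.37, CTSB from -0.30 to 0.21 and NEFM from -0.49 to 1.63. Of the TLR distances under the alternatives, 181 kept their side and call, 3 turned and 6 lost the call below. For CNPY4 the limma call above was lost without replicate 1 (0.70) or replicate 2 (0.80). With the pairs that share a distribution as a block, all 10 TLR genes remained below in limma (largest adjusted p = 2.5e-06) and TICAM2 was no longer called (adjusted p = 0.061). No paired analysis was possible because the design holds 1 group.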
